A study of Mus musculus with 6 samples.

Results

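The genes described here are the ion channel genes of immortalized mouse pancreatic fibroblasts, read in bulk RNAseq of 6 libraries. They were chosen by name from the table of counts: voltage-gated, calcium- and sodium-activated, inward rectifier and two-pore potassium channels with their auxiliary subunits (Kcn), the hyperpolarization-activated HCN channels (Hcn), voltage-gated sodium (Scn) and calcium (Cacn) channels, TRP channels of the C, M and V groups, CLC chloride channels and transporters (Clcn), anoctamins (Ano), Piezo channels, the ATP-gated P2X receptors (P2rx) and the volume-regulated LRRC8 anion channels. Of 14831 genes in the table, 72 carry such a name. The symbol column gave 65 of them, and 7 rows that have an Ensembl identifier but no symbol (Hcn4, Trpm5, Kcnip3, Kcna6, Kcnf1, Cacna1b and Ano9) were named through GENCODE M21. One of the 72, Kcnq1ot1, is a noncoding antisense transcript and is set apart, which leaves 71 channel genes. GENCODE M21 lists 190 protein-coding genes with these names. Genes with few counts were not in the table, so a channel gene outside it was not analysed here.

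The 3 libraries of one group are labelled WT. The 3 of the other group carry the genotype Gli2-/-;Gli3-/-, called KO. Both groups are immortalized fibroblasts of mixed strain grown to confluence in 6-well plates in DMEM with calf serum. According to the methods of the study, such lines came from the pancreas of adult mice with floxed Gli alleles and were infected, in both arms, with an adenovirus that carries GFP. The KO arm also received an adenovirus with Cre, driven like GFP by the CMV promoter, and the control arm a lentivirus with dsRed. Infected cells were then sorted by flow cytometry and screened for recombination, and an effect of the different viruses and one of the deletion cannot be told apart here. The libraries of a group thus come from wells of cultured cells. Nothing in the labels says that they come from separately made lines, and p-values measure only the spread between these wells. GLI2 and GLI3 are transcription factors of the Hedgehog pathway, and the comparison asks which genes differ between fibroblasts with and without them.

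Ion channels are membrane proteins that let selected ions pass. In most families a pore-forming subunit carries the current, and auxiliary subunits set its gating or its delivery to the membrane. Fibroblasts do not fire action potentials, but potassium and chloride channels set their membrane potential and volume, and Piezo and TRP channels admit calcium when the membrane is stretched or receptors are engaged. HCN channels open on hyperpolarization and carry the pacemaker current of the heart and of many neurons, and HCN4 is the main form in the sinoatrial node.

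The targeted genes were read first. Gli2 counts were 809, 944 and 868 under the WT label, against 1932, 2316 and 1926 under the KO label. Gli3 counts were 392, 416 and 398 against 1434, 1637 and 1404. Both genes were thus higher in every KO-labelled library, by 1.05 (standard error, SE, of 0.05, adjusted p = 1.16e-11) for Gli2 and by 1.71 (SE 0.05, adjusted p = 1.45e-13) for Gli3 on the log2 scale. A count over all exons of a gene can include reads from exons that a deletion leaves in place, so these values check the labels only in part. Gli1 and Ptch1, both known targets of Hedgehog signaling and read after their values were seen, were lower under the KO label, Gli1 at log2 -2.40 (SE 0.31, adjusted p = 5.62e-06) and Ptch1 at log2 -1.53 (SE 0.04, adjusted p = 1.15e-12). The groups are therefore called WT-labelled and KO-labelled throughout, and every direction below rests on those labels.

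Totals lay between 31728420 and 41035931 counts per library. Levels are given as CPM, counts scaled to the library total after TMM scaling, as mean ± SD with n = 3 libraries a group, and fold changes are KO-labelled relative to WT-labelled. A gene was called changed at a Benjamini-Hochberg adjusted p under 0.05 in edgeR's quasi-likelihood test and a change of at least 1.5-fold. Of the fibroblast markers listed, 8 of 10 were in the table, with Col1a1 at 16000 ± 871 CPM in the WT-labelled and 16100 ± 408 CPM in the KO-labelled libraries. Pdpn and Fap were not among its rows and Thy1 had between 0 and 19 counts per library. Dcn, Col3a1, Pdgfra and Pdgfrb were called lower, with log2 fold changes between -1.55 and -0.66.

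Of the 72 members, 69 passed the filter on low counts and were tested. Of these 69, 37 were called, or 53.6%, where 17.7% of all 14289 tested genes were called. Among the calls 30 were higher and 7 lower under the KO label, against 11.6% of all tested genes called higher and 6.06% called lower. The median log2 fold change of the tested members was 0.44 and that of all tested genes 0.0. At an adjusted p alone, without the fold limit, 48 of the 69 passed, beside 58.8% of all tested genes. No overlap between the groups of libraries was seen for 51 members, 37 higher and 14 lower, beside 64.2% of all tested genes. Calls upward thus outnumbered calls downward, and differences that pass the test by p alone are common among all genes here. In bulk libraries, more cells with a transcript and more of it per cell cannot be told apart.

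These shares depend on level. The filter lets in a gene that is expressed in 1 group only, and 20 of the tested members were under 0.3 CPM in at least 1 library. Of these 20, 16 were called. No such share was worked out over all genes. The filter itself favours a difference in such genes, so this count is not read as a result. When every library had to hold at least 10 counts, 50 members were tested and 22 called (44.0%), 18 higher and 4 lower, beside 14.6% of all genes tested that way. By mean level over all 6 libraries, 15 of 21 members under 1 CPM were called (71.4%, all genes 34.1%), 13 of 21 between 1 and 10 CPM (61.9%, all genes 32.9%) and 9 of 27 at 10 CPM or more (33.3%, all genes 9.0%). The median log2 fold change was 0.86 in the lowest of these 3 groups of members, 0.78 in the middle one and 0.01 in the highest, where 16 values were positive and 11 negative, beside 0.13, 0.10 and -0.02 for all genes. The rows without a symbol also differ from the others. All 6 tested members named through their identifier were called, and among all protein-coding rows without a symbol 201 of 363 were called (55.4%), beside 16.6% of those with one.

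**Figure D1:**
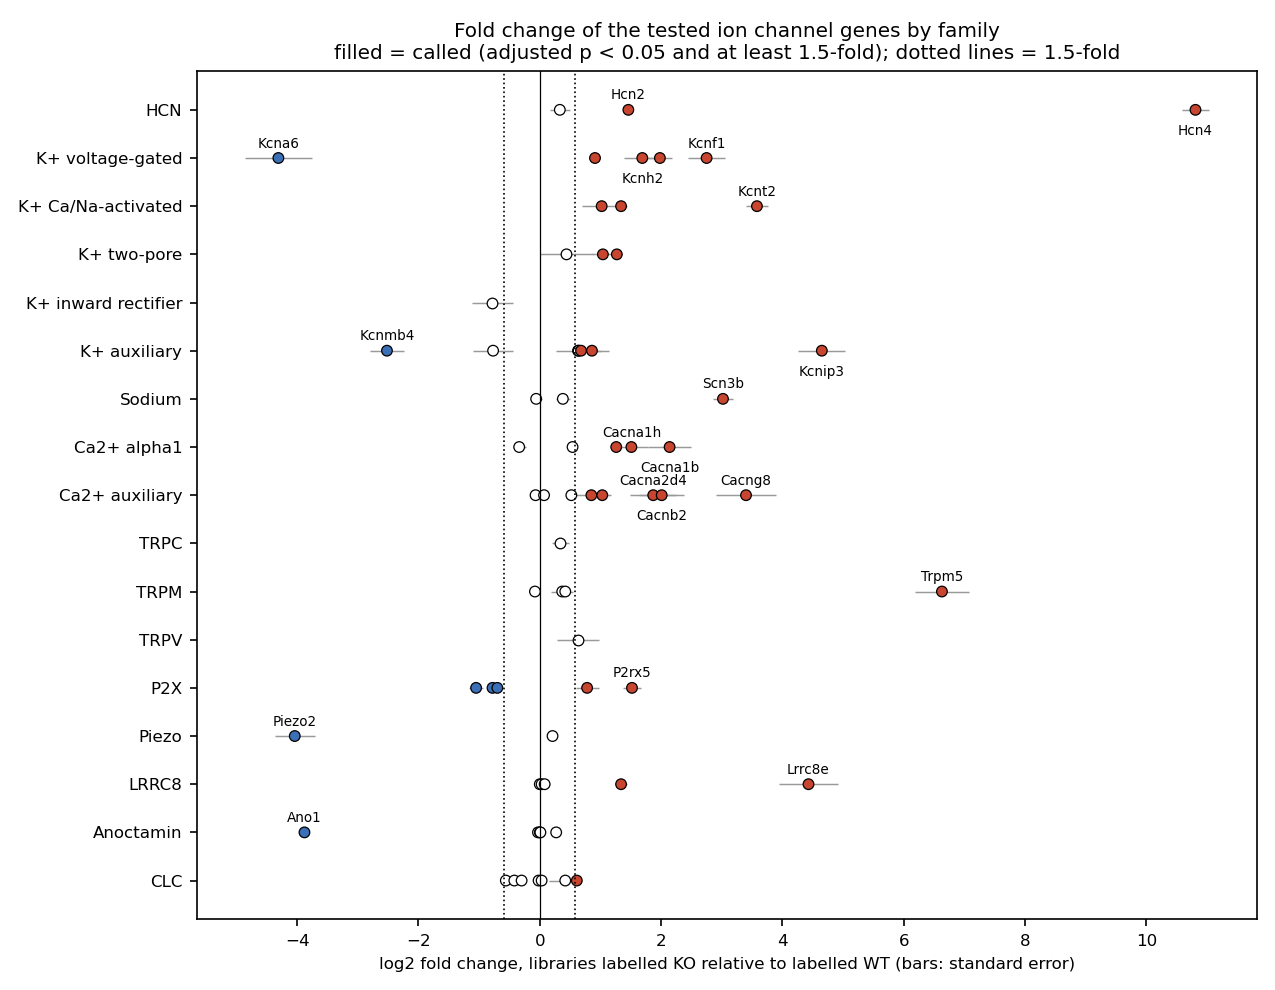
Log2 fold change of each tested channel gene, KO-labelled relative to WT-labelled libraries (n = 3 each, x axis), in rows by channel family; bars are standard errors, filled points are called, open points are not, and dotted lines mark 1.5-fold. Hcn4 stands farthest to the right at 10.81, the calcium channel rows hold called members on the higher side alone, and the P2X row holds 2 called members on the higher and 3 on the lower side.

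The stretches of DNA just before the starts of 3 members are shown first. Hcn4 and Trpm5 are the tested members with the largest ratios between the groups, both higher from a group at the detection floor, and Ano1 is shown beside them as a gene that was 14.8-fold lower under the KO label. They were read from RefSeq on GRCm38.p6, 5′ to 3′ on the strand of the gene, with each CpG dinucleotide in capitals. Hcn4 is shown over chr9:58822699-58822948 on the + strand, upstream of the gene as GENCODE M21 places it. Trpm5 is shown over chr7:143094643-143094892 on the - strand, next to its annotated start. Ano1 is shown over chr7:144738593-144738823 on the - strand, before a start that lies within the GENCODE span of the gene.
Hcn4: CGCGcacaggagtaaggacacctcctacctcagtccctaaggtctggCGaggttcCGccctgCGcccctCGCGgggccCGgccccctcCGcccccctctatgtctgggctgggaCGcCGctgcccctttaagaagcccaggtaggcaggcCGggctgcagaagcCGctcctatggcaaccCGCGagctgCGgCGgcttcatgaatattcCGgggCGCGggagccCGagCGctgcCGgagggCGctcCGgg
Trpm5: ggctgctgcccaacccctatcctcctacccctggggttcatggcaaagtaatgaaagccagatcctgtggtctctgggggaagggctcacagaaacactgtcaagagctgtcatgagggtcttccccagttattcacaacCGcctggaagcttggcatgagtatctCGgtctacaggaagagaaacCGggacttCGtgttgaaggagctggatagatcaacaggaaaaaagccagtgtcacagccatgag
Ano1: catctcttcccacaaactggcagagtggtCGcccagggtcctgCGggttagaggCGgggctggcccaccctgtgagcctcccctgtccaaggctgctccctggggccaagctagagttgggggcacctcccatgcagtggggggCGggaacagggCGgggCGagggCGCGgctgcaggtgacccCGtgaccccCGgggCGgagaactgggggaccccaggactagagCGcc
The Hcn4 stretch held 25 CpGs in its 250 bases, the Trpm5 stretch 4 in 250 and the Ano1 stretch 12 in 231. The Ano1 stretch was shortened to leave out annotated exon bases, and its full window of 250 bases held 16 CpGs. Over all RefSeq windows of 250 bases the median was 6 CpGs, with quartiles of 2 and 16. The Hcn4 window thus lies above the upper quartile and the Trpm5 window below the median, although both genes went up from the floor.

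GLI proteins bind a well-known site, GACCACCCA, which reads TGGGTGGTC on the other strand. These letters were in 74 of 32851 RefSeq windows (0.225%). RefSeq windows were at hand for 55 members, 83 windows in all, and 1 of them held the site, a window of Cacnb4, which encodes an auxiliary subunit of calcium channels. It is shown with its flanks over chr2:52675990-52676018 on the - strand, the site in capitals.
Cacnb4: gggtgctcggGACCACCCAgctcggggtg
The shorter core CCACCCA, read on both strands and contained in that site, was in 12 of the 83 member windows (14.5%) and in 8.11% of all windows, and the GC box GGGCGG, read on both strands, in 47.0% and 32.7%. Of the 43 windows of called members, 4 held the core. The rest of the 12 member windows with the core belong to members that were not called or not tested. Whether the core differs between these sets of windows was not tested. A match of letters is a description, and these windows cover only the bases before a start. Cacnb4 itself had 16, 7 and 23 counts under the WT label and 25, 41 and 29 under the KO label. Its groups overlapped, and its log2 fold change of 0.85 (SE 0.33, adjusted p = 0.035) was no longer called with DESeq2, with limma on the deposited log2 CPM, or without WT replicate 1 or 2 or KO replicate 2 or 3.

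HCN channels showed the largest change of any member. Hcn4 (ENSMUSG00000032338, chromosome 9, 58823412 to 58863175 in GENCODE M21) had 1, 0 and 0 counts in the WT-labelled libraries and 827, 1040 and 885 in the KO-labelled ones. Every KO-labelled library was far above every WT-labelled one, where the gene was at the floor of 3 counts or below. As rates, the ratio was 2420, with a 95% exact counting interval from 434 to 95600, which covers counting error only. The fit gave log2 10.81 (SE 0.22, adjusted p = 1.45e-15), a value that rests on 1 read in WT replicate 1: without that library it was 12.78, and over the other fits it lay between 10.12 and 11.14. No annotated gene overlaps the exons of Hcn4.

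Hcn2, a widespread neuronal HCN subunit, had 211, 259 and 233 counts in the WT-labelled and 761, 818 and 616 in the KO-labelled libraries. The groups did not overlap, and the level went from 7.25 ± 0.501 to 19.9 ± 1.44 CPM, 2.74-fold (log2 1.46, SE 0.08, adjusted p = 1.25e-10). Hcn3 had 50, 54 and 46 against 62, 81 and 71 counts, without overlap, but its log2 difference of 0.33 (SE 0.16) did not pass the test (adjusted p = 0.0858), and 17.116% of its exon bases overlap Pklr on the opposite strand. Per kb of exon, Hcn2 ranged from 2.11 to 2.42 CPM per kb in the WT-labelled libraries, Hcn3 from 0.347 to 0.388 and Hcn4 from 0 to 0.00521. In the KO-labelled libraries the order was Hcn2 (5.85 to 6.73), Hcn4 (3.82 to 4.38) and Hcn3 (0.421 to 0.518), with no overlap between neighbours. Hcn4 thus passed Hcn3 but stayed below Hcn2. The summed level of the 3 genes went from between 2.5 and 2.81 to between 10.7 and 11 CPM per kb.

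Because HCN4 is best known from the heart and from neurons, markers of those cells were read beside it. Of 8 cardiomyocyte markers, Myh6, Myh7, Actc1, Nppa, Ryr2 and Pln were not among the rows of the table. Tnnt2 and Tnni3 were, both called higher, with log2 fold changes of 0.75 and 0.64, and their summed level went from between 29.3 and 33.2 to between 49.8 and 54.0 CPM. Of 8 neuron markers, Snap25, Rbfox3, Elavl4, Stmn2, Gap43 and Nefl were not among the rows, and of Tubb3 and Syt1 the former was called higher (log2 1.28), with a summed level of 3.82 to 5.58 and then 9.21 to 12 CPM. None of the endocrine (0 of 7) or endothelial (0 of 4) markers was a row. Most defining markers of either cell type were thus absent from the table in both groups, and the part of the cells behind Tnnt2, Tnni3 and Tubb3 in the Hcn4 result was not tested.

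**Figure D2:**
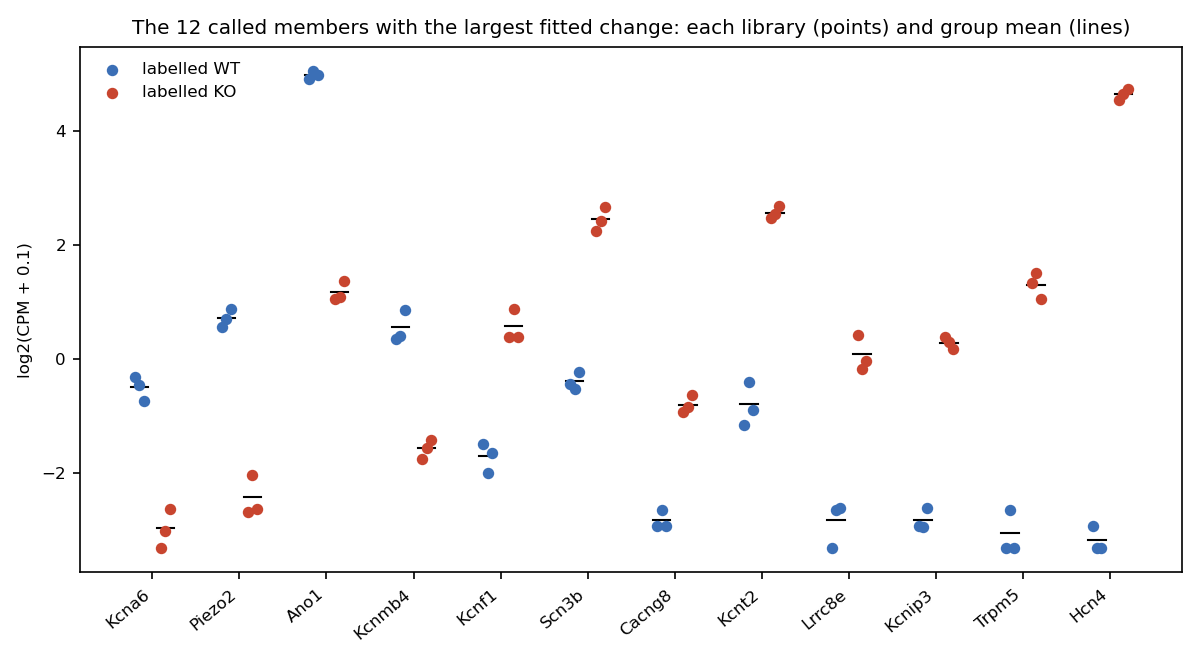
Level of the 12 called members with the largest fitted change in each library, as log2(CPM + 0.1) on the y axis, WT-labelled libraries in blue and KO-labelled ones in red, with a line at each group mean. Hcn4, Trpm5, Kcnip3, Lrrc8e and Cacng8 sit near the bottom of the axis in the WT-labelled libraries, Kcna6 and Piezo2 in the KO-labelled ones. No gene shown has overlapping groups, which a choice by the largest fitted change favours. No overlap was seen for 64.2% of all tested genes.

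Potassium channels set the resting potential and bring the membrane back after depolarization. Of 19 tested genes of this group 15 were called (78.9%, beside 17.7% of all tested genes), 13 higher and 2 lower, with a median log2 fold change of 0.91 (all genes 0.0). Most are under 10 CPM, where the share over all genes is higher, as given above. With at least 10 counts in every library, 9 were tested and called, and all 9 were higher, beside 14.6% of all genes called that way. The table holds 5 of the 40 voltage-gated potassium channel genes of the annotation and 1 of its 15 inward rectifiers, so most of the group was not in the table.

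All 5 voltage-gated pore genes were called, beside 17.7% of all tested genes. Kcnf1, a modifier subunit that is silent on its own, had 8, 5 and 7 counts in the WT-labelled and 43, 73 and 40 in the KO-labelled libraries (log2 2.75, SE 0.30, adjusted p = 1.05e-06). It was higher in every KO-labelled library. Kcnh2, which encodes the hERG channel, had 9, 6 and 9 against 22, 38 and 29 counts (log2 1.69, SE 0.31, adjusted p = 0.000219). Kcnd1, an A-type channel and the voltage-gated potassium gene with the highest level per kb, went from 6.65 ± 0.537 to 12.5 ± 0.79 CPM (log2 0.91, SE 0.08, adjusted p = 1.01e-07). None of these genes had overlapping groups, beside 64.2% of all tested genes without overlap. Kcna6, a Shaker-type channel, went the other way, with 22, 21 and 16 counts under the WT label and 0, 1 and 2 under the KO label. Its rate was 22.4 times lower in the KO-labelled libraries (95% exact counting interval 7.29 to 112, fit adjusted p = 5.02e-06). Of its exon bases 39.613% overlap an antisense transcript, and whether reads were counted by strand is not stated.

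Among the channels opened by intracellular ions, Kcnt2, a sodium-activated channel, had 11, 22 and 14 counts in the WT-labelled and 194, 239 and 209 in the KO-labelled libraries. Its groups were far apart, at 0.482 ± 0.158 and 5.85 ± 0.437 CPM, 11.9-fold (log2 3.58, SE 0.18, adjusted p = 6.27e-11). Kcnn1, a small-conductance calcium-activated channel, had 103, 103 and 106 against 298, 327 and 275 counts (log2 1.34, SE 0.09, adjusted p = 4.48e-09). Kcnu1, best known from sperm, had 11, 5 and 11 against 20, 25 and 18 counts (log2 1.02, SE 0.33, adjusted p = 0.0145), a call that was lost with DESeq2 (adjusted p = 0.0717) and without WT replicate 2 (adjusted p = 0.0849). All 3 genes were called higher without overlap. Of all tested genes, 17.7% were called and 64.2% had no overlap. Kcnma1, the pore of the large-conductance BK channel, was too low for the test, with 1, 0 and 1 against 8, 13 and 9 counts, a ratio of 13.2 (95% exact counting interval 3.35 to 114).

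The BK auxiliary subunit Kcnmb4 went down, with 37, 41 and 55 counts in the WT-labelled and 7, 10 and 9 in the KO-labelled libraries (log2 -2.52, SE 0.28, adjusted p = 1.17e-06). The counts of the pore gene Kcnma1, which was not tested, and of this subunit went in opposite directions, both at levels near or below 1 CPM. On the side of Kcnmb4, 2 antisense transcripts overlap 20.848% and 10.68% of its exon bases. Kcnip3, a calcium-binding protein that modulates Kv4 channels and can act in the nucleus as the repressor DREAM, had 1, 1 and 2 against 43, 47 and 34 counts. That is a ratio of 27.2 (95% exact counting interval 10.4 to 102, fit adjusted p = 5.20e-08). The 3 beta subunits of Shaker-type channels were all called higher by smaller amounts, beside 11.6% of all tested genes called higher. Kcnab1 went from 95.8 ± 0.865 to 148 ± 3.37 CPM (log2 0.63, SE 0.03, adjusted p = 5.92e-11). Kcnab2 was higher by 0.68 (adjusted p = 0.00104) and Kcnab3 by 0.86 (adjusted p = 0.0149) on the log2 scale. The Kcnab3 call was lost without WT replicate 1 (log2 0.63, adjusted p = 0.0701) or KO replicate 1 (log2 0.65, adjusted p = 0.0833). Kcnab1 had the highest level of any potassium channel gene, 11.1 and 17.3 CPM per kb in the 2 groups.

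Two-pore channels carry background potassium current. Kcnk2 (TREK-1), a channel opened by membrane stretch and lipids, had 302, 254 and 241 counts in the WT-labelled and 733, 785 and 666 in the KO-labelled libraries. Its groups did not overlap (log2 1.27, SE 0.08, adjusted p = 4.60e-09). An antisense transcript that covers 12.219% of its exon bases, A430027H14Rik, was called higher as well, from 3, 4 and 3 to 12, 14 and 10 counts. Kcnk5 (TASK-2) had 25, 25 and 27 against 58, 64 and 58 counts (log2 1.04, SE 0.18, adjusted p = 0.000153). The 1 inward rectifier, Kcnj15, had 17, 12 and 15 against 11, 11 and 7 counts and did not pass the test (log2 -0.78, adjusted p = 0.0558). It passed with limma-voom (adjusted p = 0.049), without the robust option (adjusted p = 0.0484) and without WT replicate 2 (adjusted p = 0.0456).

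Voltage-gated calcium channels consist of an alpha1 pore with beta and alpha2-delta auxiliary subunits, and the gamma genes of this name include regulators of AMPA receptors. Of 13 tested genes 8 were called (61.5%, beside 17.7% of all tested genes), all higher, with a median log2 fold change of 1.03 (all genes 0.0). Under the filter of 10 counts, 8 were tested and 3 called, beside 14.6% of all genes. The T-type pores Cacna1g and Cacna1h were both higher: Cacna1g had 392, 443 and 431 counts in the WT-labelled and 1012, 1274 and 1163 in the KO-labelled libraries (log2 1.26, SE 0.07, adjusted p = 4.43e-09), and Cacna1h 15, 10 and 14 against 50, 36 and 41 (log2 1.51, SE 0.28, adjusted p = 0.000216). T-type channels open near the resting potential, and neither gene had overlapping groups, beside 64.2% of all tested genes without overlap. Cacna1b, the N-type pore of nerve terminals, had 15, 4 and 8 against 55, 52 and 30 counts (log2 2.14, SE 0.35, adjusted p = 0.000111). Cacna1c, the L-type pore and the highest alpha1 gene per kb, did not pass the test, with 6508, 7398 and 7894 against 5933, 6876 and 6698 counts (log2 -0.34, SE 0.11, adjusted p = 0.0591). Its groups did not overlap in CPM. The adjusted p was under 0.05 with DESeq2 (0.0131), limma-voom (0.00164) and limma on the deposited log2 CPM (0.00244). It was so too without the robust option (0.00182) and without KO replicate 3 (0.00209). In each of these fits the change stayed under the fold limit.

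The auxiliary subunits called highest were at few counts. Cacng8 had 1, 2 and 1 counts in the WT-labelled and 15, 19 and 18 in the KO-labelled libraries, a ratio of 11.4 (95% exact counting interval 4.2 to 43.5, fit adjusted p = 2.10e-05). Cacnb2 had 4, 3 and 8 against 24, 28 and 18 counts (log2 2.01, SE 0.37, adjusted p = 0.000223). Cacna2d4, an alpha2-delta subunit of the retina, had 6, 4 and 3 against 18, 22 and 15 counts (log2 1.87, SE 0.38, adjusted p = 0.000528). None of the 3 reached 1 CPM in any group mean. Cacnb3, by contrast, was the calcium channel gene with the highest level per kb of exon, at 153 ± 2.92 and 161 ± 1.36 CPM, and its log2 difference of 0.07 (SE 0.03, adjusted p = 0.0455) is far under the fold limit. The beta subunit that makes up most of the summed level per kb of the auxiliary genes thus differed by less than the fold limit, and the summed level of the auxiliary genes went from between 47.1 and 48.6 to between 51.6 and 52.0 CPM per kb.

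Of the 3 voltage-gated sodium channel genes, 1 was called (33.3%, beside 17.7% of all tested genes). Scn3b, an auxiliary beta subunit with an immunoglobulin domain, had 20, 20 and 24 counts in the WT-labelled and 165, 221 and 207 in the KO-labelled libraries. Every KO-labelled library was higher (8.12-fold, log2 3.02, SE 0.17, adjusted p = 4.17e-10).

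TRP channels conduct cations, many of them calcium. Of 6 tested genes 1 was called (16.7%, beside 17.7% of all tested genes). Trpm5, a calcium-activated cation channel of taste cells, had 0, 2 and 0 counts in the WT-labelled and 86, 114 and 65 in the KO-labelled libraries. The groups were far apart, with a ratio of 116 (95% exact counting interval 31.9 to 967, fit adjusted p = 3.18e-09). On the opposite strand, Tssc4 overlaps 3.439% of the exon bases of Trpm5 and had 662, 700 and 628 against 676, 813 and 561 counts. Trpm7, a channel with a kinase domain that carries magnesium and was the highest TRP gene per kb, had 5191, 5861 and 5605 against 5484, 6705 and 5708 counts, with overlap (log2 -0.08, SE 0.04, adjusted p = 0.0985). The most abundant TRP gene thus did not separate the groups. Trpc1 had 78, 118 and 88 against 142, 139 and 127 counts (log2 0.34, SE 0.14, adjusted p = 0.0451, under the fold limit). Trpv2 had 13, 12 and 15 against 12, 33 and 26 counts (log2 0.63, SE 0.34, adjusted p = 0.116), and without KO replicate 1, the library with 12, it was called (log2 0.92, adjusted p = 0.0147). Trpv4 was too low for the test, with 3 to 10 counts in the WT-labelled and 3 to 5 in the KO-labelled libraries.

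Kcnq1ot1, the long noncoding RNA that runs antisense to Kcnq1 and takes part in imprinting of that domain, lies 108.8 kb from Trpm5 on chromosome 7. It had 169, 234 and 278 counts in the WT-labelled and 149, 174 and 239 in the KO-labelled libraries. The groups overlapped (log2 -0.45, SE 0.30, adjusted p = 0.255), and without KO replicate 3 it passed the test (log2 -0.75, adjusted p = 0.0041).

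Piezo channels are large trimers opened by membrane tension. Piezo1 had the highest level per kb of all members, with 12461, 13089 and 12247 counts in the WT-labelled and 15794, 18562 and 15474 in the KO-labelled libraries. The groups did not overlap, at 391 ± 6.99 and 453 ± 13.3 CPM, but the change was 1.16-fold (log2 0.21, SE 0.03, adjusted p = 1.35e-05) and under the fold limit. Of its exon bases 24.57% overlap Ctu2 on the opposite strand, which had 568 to 597 counts in the WT-labelled and 639 to 938 in the KO-labelled libraries. Piezo2, the form of sensory neurons and Merkel cells, had 43, 51 and 56 against 2, 6 and 2 counts. It was lower in every KO-labelled library (log2 -4.04, SE 0.33, adjusted p = 3.23e-08). Per kb, Piezo1 was above Piezo2 in both groups, with 38.7 to 40.1 against 0.0798 to 0.102 CPM per kb in the WT-labelled libraries, so the called change is in the minor member.

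P2X receptors open when extracellular ATP binds. All 5 members in the table were called, 2 higher and 3 lower, beside 17.7% of all tested genes, and none had overlapping groups, beside 64.2% of all tested genes without overlap. P2rx4, the highest of them, had 3037, 3235 and 3159 counts in the WT-labelled and 2159, 2472 and 1968 in the KO-labelled libraries (97.5 ± 1.29 and 60 ± 0.881 CPM, log2 -0.70, SE 0.03, adjusted p = 3.20e-11). P2rx7, which responds to high ATP and is known for its role in inflammasome activation, had 1281, 1391 and 1328 against 845, 947 and 855 counts (log2 -0.78, SE 0.05, adjusted p = 1.61e-09). Both were lower in every KO-labelled library, and the 2 genes are neighbours, 16.1 kb apart on chromosome 5. P2rx6 had 386, 352 and 366 against 235, 220 and 152 counts (log2 -1.05, SE 0.11, adjusted p = 2.24e-06). Slc7a4 covers 13.867% of the P2rx6 exon bases on the opposite strand, with 136 to 142 against 93 to 189 counts.

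The 2 higher P2X genes were at lower levels. P2rx5 had 32, 36 and 36 counts in the WT-labelled and 113, 126 and 101 in the KO-labelled libraries (log2 1.52, SE 0.15, adjusted p = 2.20e-07), and P2rx3, the receptor of pain-sensing neurons, 33, 37 and 29 against 69, 78 and 47 (log2 0.78, SE 0.19, adjusted p = 0.00204). In the WT-labelled libraries the order per kb was P2rx4 (13.8 to 14.1), P2rx7 (6.85 to 6.97), P2rx6 (2.63 to 3.08), P2rx5 (0.426 to 0.472) and P2rx3 (0.326 to 0.394). In the KO-labelled ones P2rx4 (8.44 to 8.68) and P2rx7 (3.80 to 4.34) stayed on top and P2rx6 (1.15 to 1.66) and P2rx5 (1.26 to 1.33) overlapped. The order was otherwise the same, and the summed level went from between 24.2 and 24.7 to between 15.5 and 16.4 CPM per kb.

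LRRC8 proteins form the volume-regulated anion channel, in which LRRC8A is the obligatory subunit and the other four set its conduction. Lrrc8a had 331, 319 and 344 counts in the WT-labelled and 379, 420 and 336 in the KO-labelled libraries (log2 0.00, SE 0.07, adjusted p = 0.96). Its groups overlapped, as did those of Lrrc8b (log2 0.08, SE 0.09, adjusted p = 0.458) and Lrrc8c (log2 0.03, SE 0.05, adjusted p = 0.613). Lrrc8a shares 66.226% of its exon bases with Gm28035 on the same strand, so its count is uncertain. Lrrc8d, the subunit known for passing larger organic molecules, had 134, 173 and 143 against 420, 474 and 397 counts (log2 1.34, SE 0.09, adjusted p = 1.79e-09). Lrrc8e had 0, 2 and 2 against 44, 33 and 29 counts, a ratio of 23.3 (95% exact counting interval 8.83 to 87.1, fit adjusted p = 1.21e-06). Both of these were higher in each KO-labelled library, while Lrrc8c, which lies 87.0 kb from Lrrc8d on chromosome 5, was not. Per kb, Lrrc8c was the highest in both groups (3.80 to 4.08 and 3.93 to 4.12) and Lrrc8e the lowest (0 to 0.0151 and 0.192 to 0.300). Since the Lrrc8a count is uncertain, so is its place below Lrrc8c in this order.

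Anoctamins include calcium-activated chloride channels and lipid scramblases. Ano1 (TMEM16A), the calcium-activated chloride channel of secretory epithelia, smooth muscle and the pacemaker cells of the gut, had 943, 1115 and 1015 counts in the WT-labelled and 70, 84 and 82 in the KO-labelled libraries. It was lower in every KO-labelled library, at 31.7 ± 1.6 and 2.16 ± 0.282 CPM, 14.8-fold (log2 -3.88, SE 0.08, adjusted p = 2.61e-15). The other 4 tested anoctamins were not called. Ano6, a scramblase and the highest of the family per kb, was at 268 ± 8.12 and 270 ± 9.92 CPM (log2 0.01, SE 0.03, adjusted p = 0.829). The summed level of the family was 59.3 to 60.5 and 57.1 to 58.0 CPM per kb. Ano9, too low for the test, had 1, 7 and 6 against 14, 19 and 9 counts.

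The CLC genes encode chloride channels of the plasma membrane and chloride-proton exchangers of endosomes and lysosomes, and all 7 CLC genes of the annotation were in the table. Clcn3, an endosomal exchanger, had 939, 1017 and 915 counts in the WT-labelled and 1590, 1809 and 1569 in the KO-labelled libraries (1.52-fold, log2 0.61, SE 0.05, adjusted p = 1.35e-08). It was the 1 called member of 7 tested (14.3%, beside 17.7% of all tested genes). Clcn3 lies at the fold limit, since without WT replicate 3 or KO replicate 3 it fell to 0.58 or 0.57 and lost the call. Clcn7, the lysosomal exchanger and the highest of the family per kb, had 3596, 4024 and 3683 against 3089, 3683 and 2847 counts. Its groups did not overlap in CPM, and its log2 difference of -0.42 (SE 0.03, adjusted p = 1.46e-08) was under the fold limit.

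**Figure D3:**
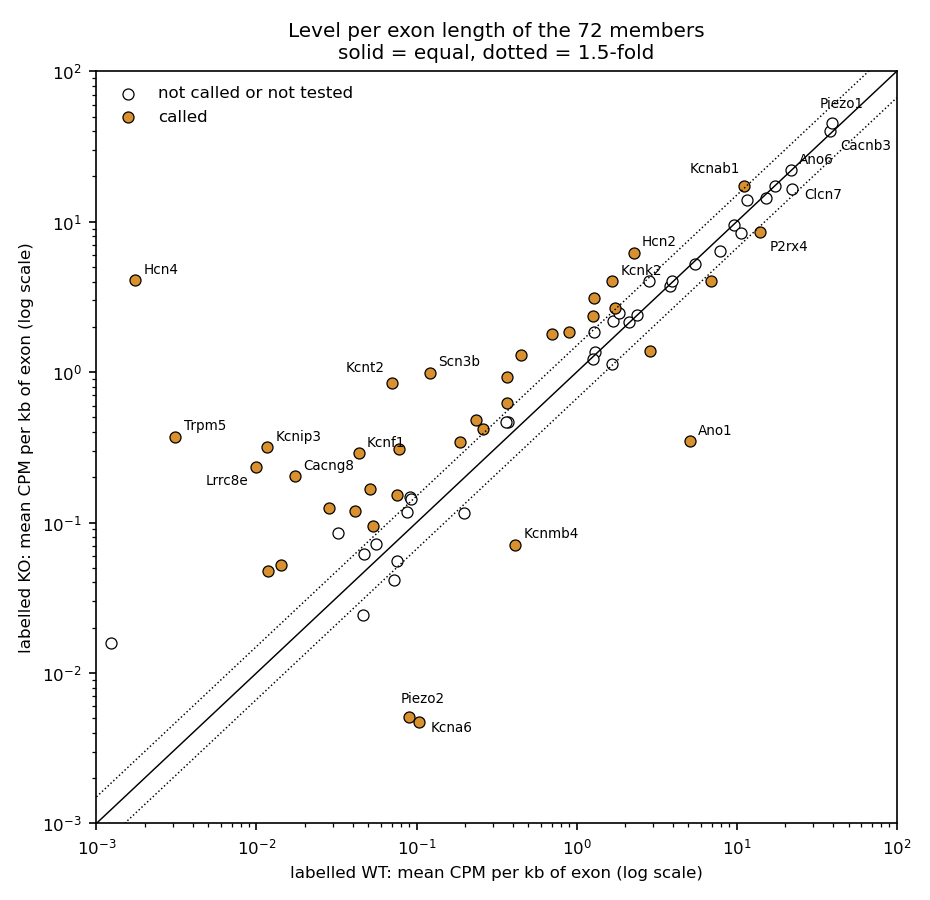
Mean level of each of the 72 members per kb of exon in the WT-labelled (x axis) and KO-labelled libraries (y axis), both in CPM per kb on log scales; orange points are called, open points are not called or not tested, the solid line marks equal levels and the dotted lines 1.5-fold. Piezo1, Cacnb3, Ano6 and Clcn7 lie at the top near the solid line, and Hcn4, at 0.00174 and 4.09, lies farthest from it.

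Levels per kb put the changes in proportion. The members with the highest mean were Piezo1 (39.3 and 45.6 CPM per kb in the WT-labelled and KO-labelled libraries), Cacnb3 (38.3 and 40.2) and Ano6 (21.8 and 22.0). None of these 3 was called. Among the family sums, those of HCN, of the voltage-gated, ion-activated, two-pore and auxiliary potassium genes, of the sodium and auxiliary calcium genes, of Piezo and of LRRC8 were higher in every KO-labelled library than in any WT-labelled one. Those of P2X, CLC, the anoctamins and the 1 inward rectifier were lower in each. A lack of overlap is common here, being seen for 64.2% of all tested genes taken singly. The sums of Piezo and of the auxiliary calcium genes are mostly Piezo1 and Cacnb3, which were not called. The sums of the auxiliary potassium genes went from between 12.3 and 12.4 to between 18.3 and 19.3 CPM per kb, those of the two-pore genes from between 1.78 and 2.26 to between 4.34 and 4.74, and those of CLC from between 44.7 and 45.9 to between 38.2 and 38.7. The alpha1 calcium genes (12.4 to 14.3 and 12.9 to 15.2), the TRPM genes (16.6 to 17.4 and 16.5 to 18.1) and the TRPC and TRPV genes overlapped between the groups.

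**Figure D4:**
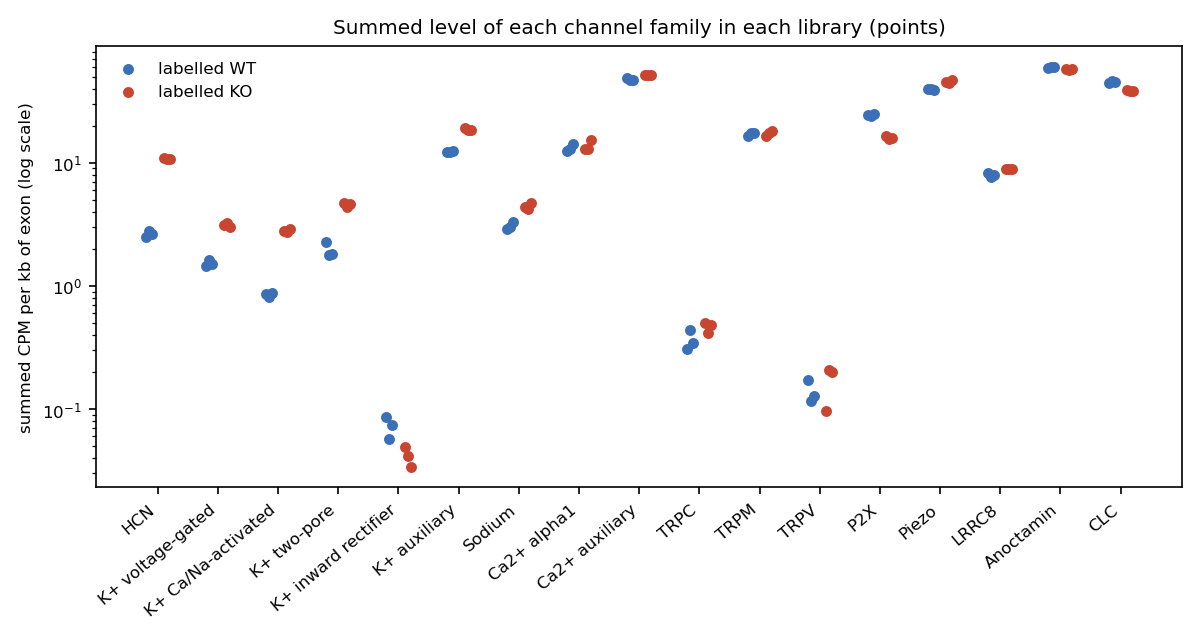
Summed level of each channel family in each library (points, CPM per kb of exon on a log y axis), WT-labelled in blue and KO-labelled in red. HCN goes from between 2.5 and 2.81 to between 10.7 and 11, P2X from between 24.2 and 24.7 to between 15.5 and 16.4, and the anoctamin, Piezo and auxiliary calcium families, which hold the genes with the highest levels, differ little on this scale.

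Neighbouring members did not all move alike. Besides P2rx4 and P2rx7, Cacna1c and Cacna2d4 lie 40.1 kb apart on chromosome 6 with log2 fold changes of -0.34 and 1.87, and Cacng7 and Cacng8 22.5 kb apart on chromosome 7 with 0.52 and 3.40, where Cacng7 had 237, 222 and 206 against 374, 392 and 317 counts and was under the fold limit. Lrrc8b and Lrrc8c, 29.3 kb apart on chromosome 5, both stayed near 0 (0.08 and 0.03). The pairs of Lrrc8c with Lrrc8d and of Trpm5 with Kcnq1ot1 are given above. All pairs were picked by position alone, as all neighbours within 200 kb, and of 6 such pairs 1 had both members called. The share among neighbouring genes at large was not worked out.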

How the data were processed

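RNAseq of immortalized mouse pancreatic fibroblasts was read in 6 libraries, grouped by their genotype labels alone. Libraries were made from polyadenylated RNA. The submitters' processing notes name STAR 2.7.2b, featureCounts, limma and the build GRCm38.p6. The strand setting and the annotation are not given in the sources used here. The authors deposited raw counts per gene, without normalization and after removing genes with low counts. A table of log2 CPM from voom was deposited too.

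The test on the counts was that of edgeR 4.0.16, run in R 4.3.3 (TMM, filterByExpr, quasi-likelihood F test, robust), over all 14289 genes that passed the filter, with Benjamini-Hochberg adjustment. The standard error is the log2 fold change over the square root of F. Ratios where a group had at most 3 counts in every library carry exact 95% intervals from the summed counts. Levels per kb are CPM over merged exon bases of GENCODE M21, to which 14822 of the 14831 identifiers matched without version. The scripts were tested on simulated data. The alternatives covered scaling (RLE, upper quartile, total counts), filters, fold limits, DESeq2 1.42.0, limma 3.58.1 with voom or on the deposited log2 CPM, and leaving out each library in turn.

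Genes were named by rule: every tested HCN, Piezo, P2X and LRRC8 member, up to 3 called members of each other family in each direction, the highest member per kb of each family, members at the floor in 1 group only, Gli2 and Gli3. Cacnb4, Cacng7, Kcnma1, Trpv4, Ano9, Gli1, Ptch1 and overlapping genes are named outside it, after their values were seen. Some genes that the rule names are not reported here. Members and lists were chosen with earlier results of these data known, and so was the 1.5-fold limit.

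Totals per library lay between 31728420 and 41035931 counts, so that 3 counts are between 0.0720 and 0.0957 CPM. No 2 libraries of a group agreed within sampling noise (chi-square per degree of freedom 2.497 to 7.743). For a single gene, 0.1 is the smallest two-sided p an exact permutation of 3 against 3 libraries allows.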

Additional observations from a re-analysis of the deposited data

How the results depend on the processing

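Counts of called members changed most with the filter. With at least 10 counts in every library, 22 members were called, 18 higher and 4 lower, among them 9 potassium, 3 calcium and 0 TRP genes, and 8 of the other channel genes listed. All 15 calls lost there were of genes that this filter leaves out of the test. Without the fold limit the TRP calls were 3 and those of the other channel genes 32. Over members with a symbol in the table alone, a choice made after seeing the data, 31 were called, 25 higher and 6 lower, and the TRP count was 0 because Trpm5 has none. Leaving out 1 library gave 1 to 2 TRP calls, the second being Trpv2 without KO replicate 1. The total count of called members lay between 35 and 39 with the other scalings and tests, without a filter and without 1 library, and 28 at 2-fold. Over 16 fits, 20 of the 37 members were called in each.

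The sign turned for 3 genes near 0: Ano6 was at -0.01 without WT replicate 1 and -0.02 without KO replicate 3, Lrrc8a at -0.05 without WT replicate 2 and -0.03 without KO replicate 1, and Lrrc8b at -0.01 without WT replicate 2. Over the fits without 1 library Ano6 lay between -0.02 and 0.03, Lrrc8a between -0.05 and 0.04 and Lrrc8b between -0.01 and 0.16. Of 765 values of named genes under an alternative, 749 kept their direction and their side of the threshold. Scaling moved the median of all genes by at most 0.059 (log2). Genes under 1 CPM rest on few reads. No paired analysis was possible because the labels give no replicate numbers that the groups share.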

Other observations

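Ion channels outside the named families were read from a list of 114 genes, of which 46 were in the table and 43 were tested. Of these 13 were called, 10 higher and 3 lower under the KO label (30.2%), beside 17.7% of all tested genes called, 11.6% higher and 6.06% lower, and their median log2 fold change was 0.07. Connexins and pannexins, which join neighbouring cells or release ATP, had 4 of 6 tested genes called, all higher. Gja1, the main connexin of fibroblasts and heart (connexin 43), had 457, 392 and 387 counts in the WT-labelled and 2931, 3236 and 2612 in the KO-labelled libraries, without overlap (12.8 ± 1.56 and 79.9 ± 2.64 CPM, log2 2.64, SE 0.06, adjusted p = 2.62e-13). Gjb5 and Panx1 were higher by 2.12 and 1.04 on the log2 scale, and Gjc1 was not called.

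The other groups had fewer calls. Tmc6, of the TMC family, had 62, 53 and 57 against 597, 700 and 565 counts (log2 3.25, SE 0.09, adjusted p = 7.30e-14), the 1 call among 4 tested genes of mechanosensitive families. Asic1, an acid-sensing channel, was higher (log2 2.19, adjusted p = 4.64e-09), as were Clic5 (2.24), the inositol trisphosphate receptor Itpr2 (0.60), the NMDA receptor subunit Grin1 (1.66) and the GABA receptor subunit Gabre (2.28). The lysosomal two-pore channel Tpcn1 was lower, with 3645, 4082 and 3789 against 1427, 1711 and 1405 counts (log2 -1.53, SE 0.04, adjusted p = 7.22e-15), and so was Orai2 of the store-operated calcium channels (log2 -0.71, adjusted p = 1.51e-09), while Orai1, Orai3, Stim1 and Stim2 were not called. The proton channel Hvcn1 was not called.

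Markers of other cell types gave these values. Of the smooth muscle and pericyte list 4 of 8 were in the table, with Mcam (log2 2.52) and Cnn1 (0.72) called higher and Acta2 and Tagln not called. Of the Schwann list 4 of 5 were in the table and 0 called. The acinar list had 1 of 6, Cela1 (0.87, called). The ductal and epithelial list had 4 of 7, with Krt7 (2.40) and Cdh1 (1.08) called higher, Sox9 not called and Krt8 at 0 to 12 counts. The macrophage list had 3 of 5 and 0 called. Their part in the channel results was not tested.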
